A study of Mus musculus with 32 samples.

Results

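The comparison described here is that of wild-type (WT) tibialis anterior at 4 months with the same muscle at 1.5 months, the interval in which a young mouse finishes most of its growth. Its members were the arrays labelled WT at those ages, 4 and 4 of the 32 arrays of the series, and all 19291 of the 20079 probe sets that carried a gene symbol were compared. The tibialis anterior is a fast muscle of the lower hind limb. All mice were labelled as strain B6/129. The WT mice carried no engineered allele by their labels, and no mouse was labelled as treated. Beside them stand WT muscles of 6 and 9 months, and muscles of mice without acid alpha-glucosidase (Gaa-/-, labelled GAA-KO 6neo/6neo), 4 arrays at each age. The labels call the arrays of a group biological replicates and the design statement counts 4 animals per group. Sex, litter and the hour at which a muscle was taken are not stated.

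After birth, limb muscle exchanges developmental isoforms of its contractile proteins for adult ones, its satellite cells fall quiet, and fibres settle into fast or slow types. Fibres also hold a circadian clock, a loop in which the factors BMAL1 (gene Arntl) and CLOCK or its partner NPAS2 switch on their own repressors, the period (Per) and cryptochrome (Cry) genes, and output factors such as DBP. BMAL1 and its partner bind the E-box, letters CACGTG, and DBP and its relatives bind the D-box, letters TTATGTAA or, on the other strand, TTACATAA. Clock transcripts rise and fall within every day, so their level in a muscle depends on the hour at which the animal was killed as well as on its age.

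Of the 47 gene and marker lists used, that of the circadian clock had the largest share of changed members between 1.5 and 4 months (9 of 18), and the promoters of 3 of those that fell are shown because their windows hold letters of the E-box or the D-box. The sequences are from RefSeq (build GRCm38.p6), run from 250 bases before to 50 bases after a gene's start, 300 in all, and are written 5′ to 3′ on the strand of the gene. Capitals mark each E-box in Ciart (chr3:95882179-95882478, minus strand) and Per1 (chr11:69098699-69098998, plus strand), and each D-box in Per3 (chr4:151044616-151044915, minus strand).
Ciart: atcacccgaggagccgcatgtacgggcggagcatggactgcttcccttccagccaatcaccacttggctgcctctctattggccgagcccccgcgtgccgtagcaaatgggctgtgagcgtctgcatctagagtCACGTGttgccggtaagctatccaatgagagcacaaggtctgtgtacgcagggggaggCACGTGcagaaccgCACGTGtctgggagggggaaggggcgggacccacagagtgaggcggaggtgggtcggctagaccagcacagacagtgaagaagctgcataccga
Per1: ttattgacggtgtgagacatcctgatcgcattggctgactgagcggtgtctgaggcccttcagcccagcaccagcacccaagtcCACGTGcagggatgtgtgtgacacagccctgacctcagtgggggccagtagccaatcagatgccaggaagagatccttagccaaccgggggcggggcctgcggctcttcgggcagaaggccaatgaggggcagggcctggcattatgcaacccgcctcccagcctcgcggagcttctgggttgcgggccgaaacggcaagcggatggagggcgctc
Per3: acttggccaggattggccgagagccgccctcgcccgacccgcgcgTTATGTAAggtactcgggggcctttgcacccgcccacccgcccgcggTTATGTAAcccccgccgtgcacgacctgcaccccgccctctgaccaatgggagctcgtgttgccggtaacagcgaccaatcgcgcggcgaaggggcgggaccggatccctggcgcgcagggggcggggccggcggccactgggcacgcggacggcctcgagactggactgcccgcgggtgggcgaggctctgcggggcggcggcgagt

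The 3 E-boxes of Ciart begin 116, 58 and 44 bases before the start of the gene, that of Per1 begins 166 bases before it, and the 2 D-boxes of Per3 begin 205 and 158 bases before it. The E-box was found in 7.15% of all 32851 promoters in the table, and the D-box in 0.938%. Of the 18 clock genes measured, 16 had a promoter entry. In that window 5 of the 16 held an E-box (Per1, Cry1, Tef, Ciart and Bhlhe41) and 1 held a D-box (Per3), against 9.32% and 0.986% of the 15519 tested genes with an entry. Matches did not follow the changes. The windows of Arntl, Npas2, Dbp, Cry2 and Nr1d2, which changed, held neither motif. Those of Cry1, Tef and Bhlhe41, which did not pass the test, held an E-box. A second promoter entry of Per1 held neither motif. A match is a run of letters in a short window and was not read as a bound site.

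In all, 88 of the 19291 genes (0.456%) differed between 4 and 1.5 months, by limma with Benjamini-Hochberg adjusted p under 0.05. Of these, 56 were higher (0.29% of all genes) and 32 lower (0.166%) at 4 months. Counts of changed list members, above and below, stand beside the 0.456% of all genes. Differences are 4 minus 1.5 months on the log2 scale of the deposited values, given with the standard error (SE) of the fit, and a fold is 2 raised to that difference. At least 2-fold changes numbered 10 rises and 13 falls. The median size of a change was 0.81 among the 88 genes and 0.13 over all genes, and 1780 genes had an unadjusted p under 0.05. The 4 and 4 values did not overlap in 1175 genes of the whole table (6.09%) and in 85 of the 88. No background level was measured, and 11 of the 88 genes had a lower group mean under the lowest array median (5.66). Folds of Mybph, Ciart, Per2, Npas2 and Myod1, which are among those 11, are therefore less certain than the others. With 1 array left out at a time, the count ran from 53 (without replicate 4 of 1.5 months) to 151 (without replicate 3 of 4 months), and it was 57 and 54 without replicates 1 and 2 of 4 months.

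As a check of the tissue, the 11 markers of skeletal muscle fibres averaged 12.2 to 12.3 on the log2 scale on each of the 8 arrays. The markers of skin (10 measured, mean 4.27 to 4.61), T cells (8, 4.39 to 4.74) and B cells (7, 3.85 to 4.52) were low at both ages, on arrays whose values ran from 1.41 to 13.7. None of the 14 marker lists of fibres and other cell types had a member past the threshold except that of adipocytes, where Plin4 fell. Gaa stood at 10.1 to 10.6 on the 8 WT arrays, against means of 6.61 and 6.98 in Gaa-/- muscle of the same ages. The array spread, the standard deviation of all values of an array, was 1.93 ± 0.039 at 1.5 and 1.97 ± 0.046 at 4 months (SD, n = 4 each, exact permutation p = 0.314, two-sided). Replicate 3 had the lowest spread of its group at both ages, 1.88 and 1.90.

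Of the 18 clock genes measured, 9 changed, 2 higher and 7 lower at 4 months. Both that rose belong to the activating arm. Arntl read 6.51, 6.59, 5.97 and 6.2 at 1.5 months and 8.25, 7.95, 7.65 and 7.77 at 4 months, so the lowest array of 4 months lay over 1 log2 unit above the highest of 1.5 months. It rose 3.01-fold (log2 1.59, SE 0.17, limma adjusted p = 1.27e-06). Npas2, the partner of BMAL1 that can stand in for CLOCK, read 4.8, 4.46, 4.02 and 4.49, then 5.70, 5.79, 5.39 and 5.61. Its rise was 1.18 (SE 0.25, limma adjusted p = 0.0163), and that call was lost without any 1 of 5 of the 8 arrays. Clock itself changed by 0.35, short of the threshold (limma adjusted p = 0.224).

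All 7 that fell are output or repressor genes. Dbp, the D-box factor, read 11.20, 11.37, 11.14 and 11.18 at 1.5 months, within 0.23 of one another, and 9.21, 9.00, 9.49 and 9.16 at 4 months. It fell 4.02-fold (log2 -2.01, SE 0.22, limma adjusted p = 1.3e-06). Ciart, a repressor of the BMAL1 complex and the gene with 3 E-boxes above, read 6.28, 6.89, 6.60 and 7.22, then 4.67, 4.84, 4.52 and 4.93. Its fall was of the same size (log2 -2.01, SE 0.25, limma adjusted p = 2.05e-05). Per2 went from 6.61, 6.84, 7.10 and 6.89 to 5.43, 5.23, 5.45 and 5.88, a 2.57-fold fall (log2 -1.36, SE 0.19, limma adjusted p = 0.000114). All 3 genes kept the groups apart without overlap.

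Per3 and Per1 each fell 2.05-fold. Per3, whose promoter holds the D-boxes, read 7.45, 7.94, 7.69 and 7.67 at 1.5 months and 6.75, 6.67, 6.49 and 6.71 at 4 months (log2 -1.04, SE 0.18, limma adjusted p = 0.00174). Per1 read 7.60, 7.87, 7.84 and 8.11, then 6.30, 6.75, 7.04 and 7.18, a wider scatter at 4 months. Its adjusted p was 0.0234 (limma), and the call was lost without any 1 of 5 arrays. The cryptochrome Cry2 (log2 -0.55, SE 0.12, limma adjusted p = 0.0275) and the REV-ERB receptor gene Nr1d2 (log2 -0.54, SE 0.11, limma adjusted p = 0.0125) fell less. Cry2 lost its call without 6 of the 8 arrays in turn and Nr1d2 without 3. The remaining 9 members did not pass. Among them were Tef, a relative of DBP (log2 -0.50, limma adjusted p = 0.0751), Nr1d1 (log2 -0.53, limma adjusted p = 0.245), Cry1 (log2 0.22) and Rora (log2 0.16). Over the 18 members the median difference was -0.42, against -0.01 over all genes. The count of 9 fell to 5 without replicate 4 of 1.5 months and without replicate 2 of 4 months.

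**Figure D1:**
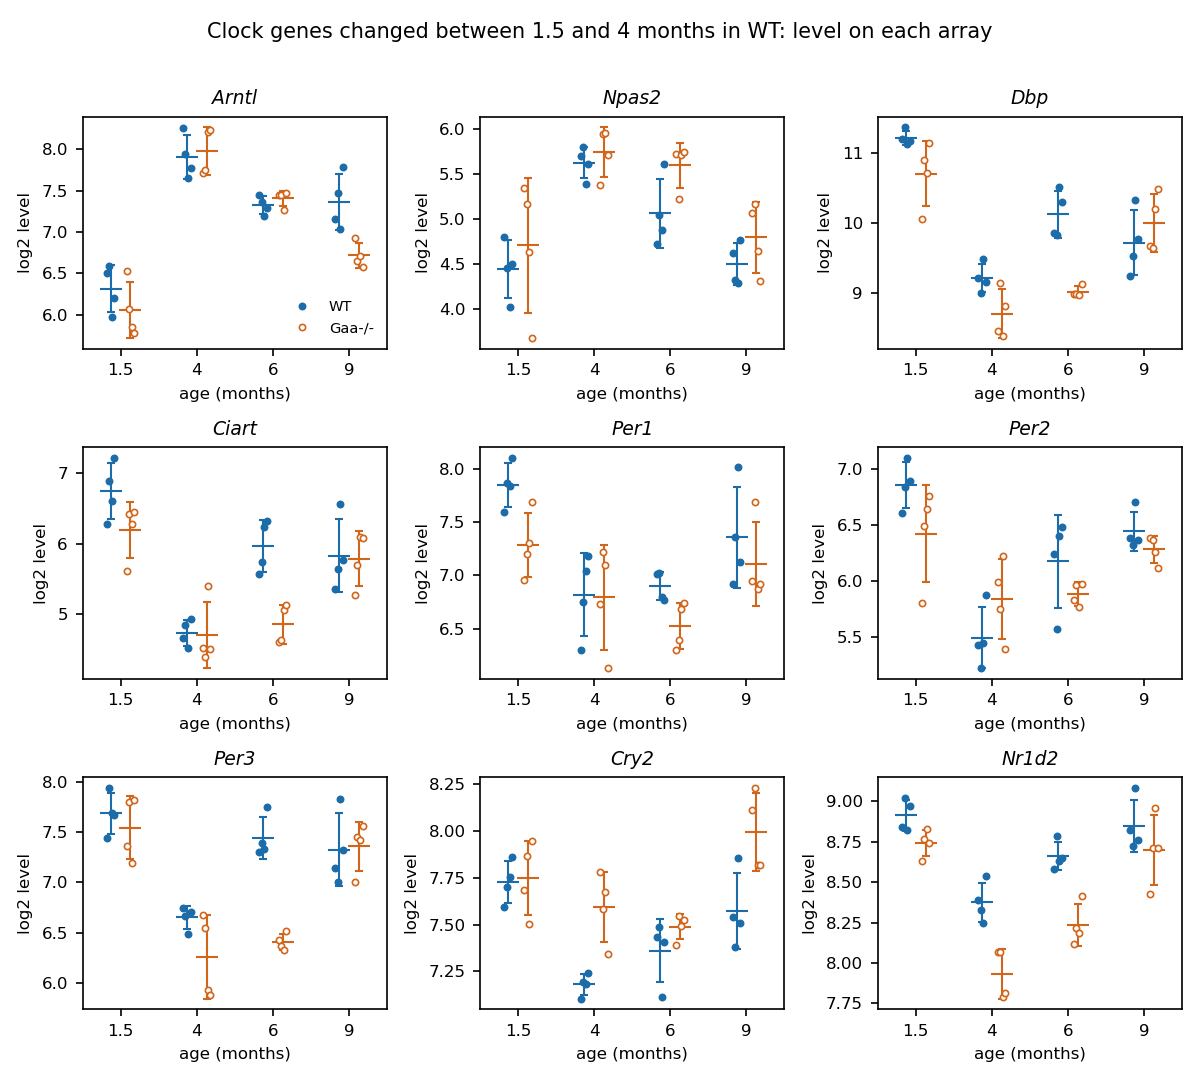
Log2 level of the 9 clock genes that changed, on each array, by age in months (x axis) for WT (filled) and Gaa-/- (open); points are arrays, horizontal marks are group means and bars are 1 SD (n = 4). In WT every gene has its highest and lowest mean at 1.5 and 4 months, and the 4 arrays of 1.5 months lie apart from the 4 arrays of 4 months in all 9 panels.

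A clock score was formed for each array as the mean of Arntl and Npas2 minus the mean of Dbp, Ciart, Per1, Per2 and Per3. These 7 genes were chosen and signed by their change between the WT arrays of 1.5 and 4 months, so that the score separates those ages by construction and its values there are a description. In WT it ran from -3.08 to -2.17 at 1.5 months and from -0.08 to 0.51 at 4 months, then from -1.43 to -0.91 at 6 months and from -2.23 to -0.99 at 9 months. The scores of 6 and 9 months, ages not used in the choice, lay below those of 4 months. Of the WT arrays of 9 months, only replicate 3 (-2.23) lay in the range of 1.5 months. The mean score was -1.40 at 9 months and -2.69 at 1.5 months. The same order held in Gaa-/- muscle for the first interval, with -3.25 to -1.22 at 1.5 and 0.06 to 0.83 at 4 months. When the score was added to the fit as a covariate, 1 gene, Mybph, stayed past the threshold (log2 -2.97, SE 0.51, limma adjusted p = 0.039). Because the score separates the ages, the median SE over genes rose from 0.16 to 0.34 in that fit, while the median size of the change of the 88 genes went from 0.81 to 0.57. Age and clock phase cannot be told apart in these arrays.

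The 6-month WT mean lay on the 4-month side of the midpoint between the 1.5- and 4-month means in 6 of the 9 clock genes, and the 9-month mean did so in 2. For the other 79 changed genes, the counts were 67 at 6 months and 55 at 9 months. Over all genes, the 6-month mean was on that side in 53.5% and the 9-month mean in 41.1%. The midpoint uses the 4-month arrays, so these counts describe levels and carry no test. Dbp stood at 11.2, 9.21, 10.1 and 9.72 at the 4 ages in WT, and Ciart at 6.75, 4.74, 5.97 and 5.83. Levels of both at 6 and 9 months were between those of 1.5 and 4 months.

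Contractile proteins gave the largest fall of the comparison. Mybph, which encodes myosin-binding protein H of the thick filament, read 7.99, 8.60, 8.52 and 9.46 at 1.5 months and 5.59, 5.72, 5.53 and 5.41 at 4 months. It fell 8.44-fold (log2 -3.08, SE 0.24, limma adjusted p = 7.32e-10) and kept its call in all 19 alternative fits. Actc1, the cardiac alpha-actin that skeletal muscle uses during development, read 11.5, 11.2, 11.3 and 10.9, then 9.78, 9.18, 9.77 and 9.75. Its fall was 2.99-fold (log2 -1.58, SE 0.23, limma adjusted p = 0.000199). Both genes stayed low later in WT, Mybph at 5.83 ± 0.51 and 6.23 ± 0.24 and Actc1 at 9.70 ± 0.41 and 9.30 ± 0.28 at 6 and 9 months (SD, n = 4 each).

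These were the 2 of 10 developmental sarcomere genes that changed. By sign the list did not move to one side, with 5 of 10 members positive and a median of -0.08. Its mean level, which includes Mybph and Actc1, was 8.17 to 8.47 on the arrays of 1.5 months and 7.57 to 7.69 on those of 4 months. Of the 5 members with an unadjusted p under 0.05, 4 were lower and 1 was higher. Csrp3, the muscle LIM protein, read 9.46, 10.98, 9.79 and 9.86, then 7.25, 7.82, 8.38 and 7.33. Its difference of -2.33 carried an SE of 0.61 and missed the threshold (limma adjusted p = 0.0871), as did the M-band gene Myom3 (log2 -0.79, limma adjusted p = 0.0935). Embryonic Myh3 (log2 0.21) and the ventricular troponin Tnnt2 (log2 0.02) did not pass. Neonatal Myh8 read 13.5 to 13.6 on all 8 arrays, at the top of the scale and next to adult Myh4 (13.4 to 13.5). These myosin genes are near-identical in long stretches, so the probe set of Myh8 cannot be read as neonatal myosin alone.

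Of 14 slow-fibre genes, 2 passed the test, both lower at 4 months. The difference was positive in 1 of the 14, against 47.0% of all genes, and the list median was -0.32. The count of 2 was 1 with the 16 WT arrays alone, and also without replicate 3 of 1.5 months or without replicate 1 or 4 of 4 months. Myoz2, the calcineurin-binding Z-disc protein calsarcin-1, read 11.8, 11.9, 11.8 and 12.3 at 1.5 months and 10.3, 10.8, 10.7 and 10.4 at 4 months. It fell 2.65-fold (log2 -1.41, SE 0.22, limma adjusted p = 0.000411). Myl3, the slow essential light chain, went from 7.84, 7.62, 7.94 and 7.76 to 6.99, 7.17, 7.19 and 6.90 (log2 -0.73, SE 0.15, limma adjusted p = 0.0132), a call that was lost without any 1 of 3 arrays. Myl2, the slow regulatory light chain, had the most negative value of the list, -1.73, with an SE of 0.58 (limma adjusted p = 0.258), and Ankrd2 read -1.26 (limma adjusted p = 0.34). The slow myosin Myh7 (log2 -0.52), its troponins Tnnt1 (log2 -0.21) and Tnni1 (log2 -0.20), and Mybpc1 (log2 -0.02) did not pass.

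Among 15 fast-fibre genes, Myh2 changed. It encodes myosin heavy chain IIa, the fast oxidative isoform, and read 12.7, 13.3, 13.1 and 13.3 at 1.5 months and 11.4, 11.4, 12.0 and 10.9 at 4 months. The fall was 3.17-fold (log2 -1.66, SE 0.37, limma adjusted p = 0.0249), and its call was lost without any 1 of 6 arrays. The faster isoforms Myh1 (log2 0.06) and Myh4 (log2 0.04), the calcium buffer Pvalb (log2 0.02) and the fast myosin-binding protein Mybpc2 (log2 0.25) did not pass. Lmod2, which starts actin filaments in the sarcomere, was the 1 member of 21 scaffold genes to change. It read 9.57, 9.81, 9.72 and 10.43, then 9.04, 8.80, 8.76 and 9.20 (log2 -0.93, SE 0.21, limma adjusted p = 0.0336), and lost its call without any 1 of 6 arrays.

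Myh2, Myoz2 and Myl3 varied together in WT at 6 months. The 4 arrays of that age read 10.5, 10.6, 12.3 and 13.04 for Myh2 and 10.2, 10.5, 11.2 and 11.8 for Myoz2. Replicates 3 and 4 stood above replicates 1 and 2 in both genes, and also in Myl3 (7.62 and 7.73 against 7.31 and 7.08) and Csrp3 (9.41 and 10.1 against 6.39 and 7.17). In bulk muscle, fewer fibres of a type and less RNA per fibre cannot be told apart.

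**Figure D2:**
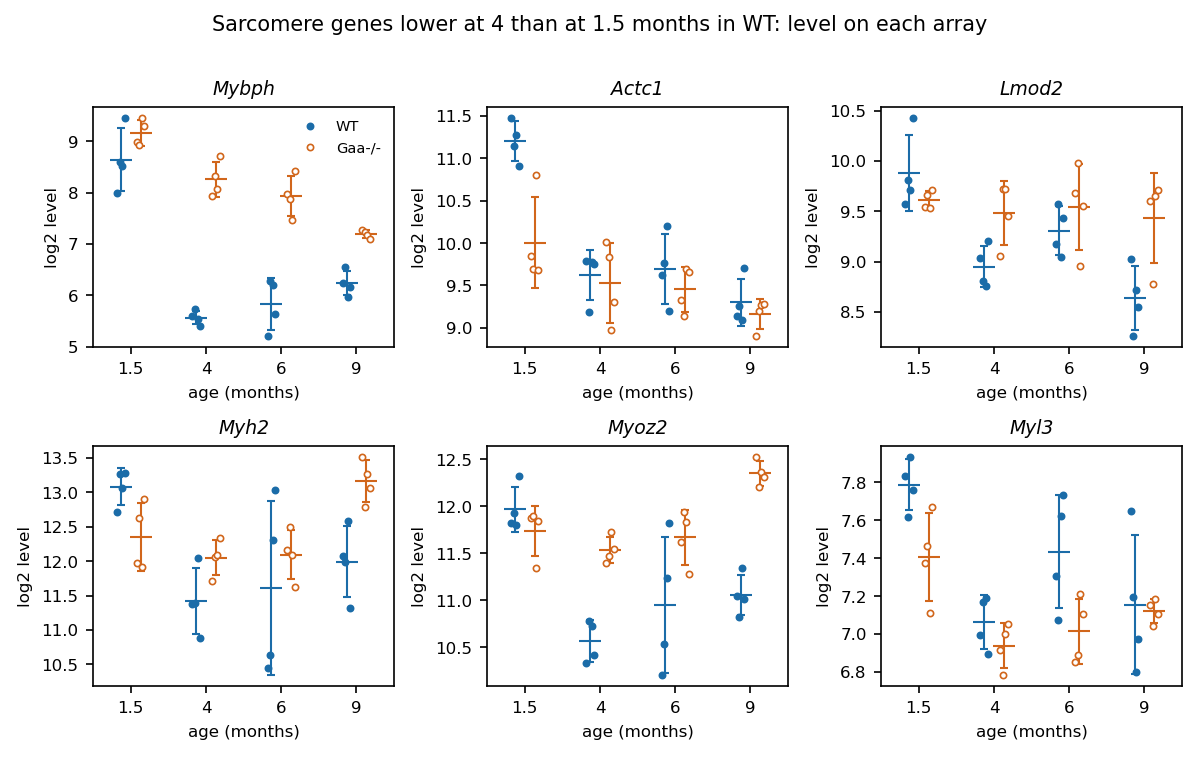
Log2 level of 6 sarcomere genes on each array, by age in months (x axis) for WT (filled) and Gaa-/- (open); points are arrays, horizontal marks are means and bars are 1 SD (n = 4). The 4 WT arrays of 1.5 months lie above the 4 of 4 months in each panel, and the WT arrays of 6 months are widely scattered for Myh2 and Myoz2.

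The largest rise was that of Slc15a5, a solute carrier of the proton-coupled peptide transporter family. It read 6.90, 6.88, 6.92 and 6.76 at 1.5 months and 8.73, 9.12, 8.43 and 9.02 at 4 months, and so rose 3.89-fold (log2 1.96, SE 0.19, limma adjusted p = 1.34e-07). The level then stayed where it was, 8.87 ± 0.16 at 6 and 8.82 ± 0.23 at 9 months (SD, n = 4 each). Mss51, a mitochondrial protein found mainly in muscle, read 9.62, 9.46, 9.41 and 9.22, then 10.98, 10.65, 10.88 and 11.15. It rose 2.81-fold (log2 1.49, SE 0.22, limma adjusted p = 0.000241), and at 9 months was lower again at 9.85 ± 0.42. That fall from 6 to 9 months was -0.92 (limma adjusted p = 0.0109).

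The list of polyamine synthesis and androgen-responsive genes held 10 measured members, of which 2 changed, both polyamine enzymes and both higher. Odc1, ornithine decarboxylase, the committed step of the pathway, read 8.02, 7.86, 7.31 and 7.38 at 1.5 months and 8.98, 8.86, 8.50 and 8.96 at 4 months. Its rise was 2.27-fold (log2 1.19, SE 0.16, limma adjusted p = 9.33e-05). Amd2, a copy of the S-adenosylmethionine decarboxylase gene, read 8.82, 8.58, 8.44 and 8.42, then 9.41, 9.55, 9.26 and 9.71. It rose 1.88-fold (log2 0.91, SE 0.18, limma adjusted p = 0.00908). Amd2 has a near-identical relative, Amd1, so the copy that was measured is uncertain. Sms, spermine synthase, read 0.41 higher and did not pass (limma adjusted p = 0.491). The list median was -0.02.

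Npr3, the clearance receptor of natriuretic peptides, read 6.5, 6.71, 6.11 and 5.92, then 7.26, 7.57, 7.21 and 8.13, a 2.35-fold rise (log2 1.23, SE 0.21, limma adjusted p = 0.00168). Amy1, an amylase gene with close copies beside it, read 7.35, 7.24, 7.19 and 7.04, then 8.32, 8.46, 8.08 and 8.37 (log2 1.10, SE 0.18, limma adjusted p = 0.000673). Dusp10, a phosphatase of the p38 and JNK kinases, went from 8.51, 8.96, 8.32 and 8.01 to 9.72, 9.81, 9.33 and 9.20, without overlap. It rose 2.09-fold (log2 1.07, SE 0.21, limma adjusted p = 0.00621). The uncharacterised gene 1700001O22Rik rose 2.48-fold (log2 1.31, SE 0.19, limma adjusted p = 0.000199).

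The rest of the 15 largest rises lay between 0.91 and 0.99. They were Cd24a (log2 0.99), a surface glycoprotein; Epb41l4b (0.98), a cytoskeletal protein; Otub2 (0.97), a deubiquitinase; Slc4a4 (0.95), a sodium bicarbonate cotransporter; Mgst1 (0.94), a microsomal glutathione transferase; and Rai14 (0.93), an actin-associated protein. Their limma adjusted p ran from 4.67e-05 (Rai14) to 0.0141 (Cd24a), and Cd24a lost its call without any 1 of 5 arrays. A smaller rise was that of Smyd2, a lysine methyltransferase, which read 9.99 to 10.2 at 1.5 and 10.68 to 10.89 at 4 months (log2 0.72, SE 0.12, limma adjusted p = 0.000673). Nos1, neuronal nitric oxide synthase (log2 0.78, limma adjusted p = 0.00159), and Asb2, a subunit of a ubiquitin ligase (log2 0.61, limma adjusted p = 0.0015), also rose and were singled out after their values were seen.

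**Figure D3:**
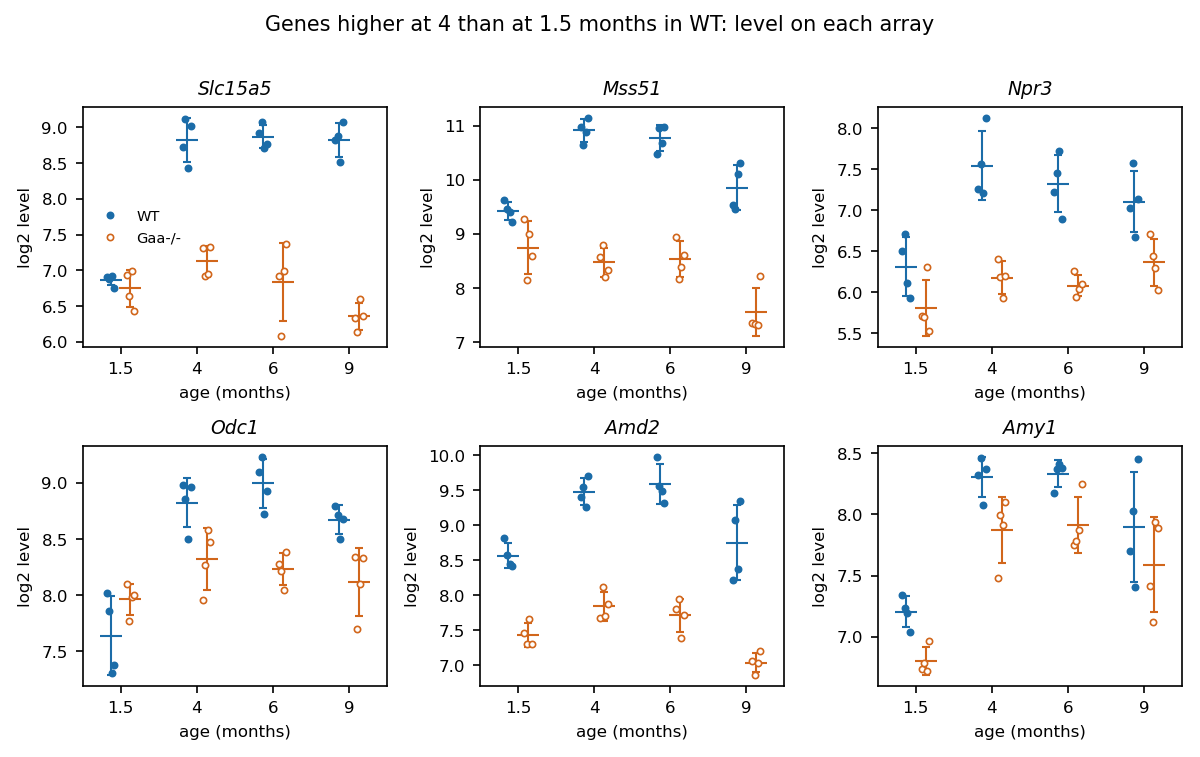
Log2 level of 6 genes that rose in WT from 1.5 to 4 months, on each array, by age in months (x axis) for WT (filled) and Gaa-/- (open); points are arrays, horizontal marks are means and bars are 1 SD (n = 4). The WT values of 4 months lie above those of 1.5 months in each panel, and Slc15a5 stays near its 4-month level at 6 and 9 months.

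Regulators of growth gave single genes, where 0.456% of all genes passed and 9.23% had an unadjusted p under 0.05. Of 26 genes of the growth hormone and insulin-like growth factor axis (median -0.05, 4 with an unadjusted p under 0.05), 1 passed. It was Socs2, a feedback inhibitor of growth hormone signalling, which read 6.91, 7.26, 6.60 and 6.02, then 7.59, 8.16, 7.10 and 7.41. The groups overlap, and the rise (log2 0.87, SE 0.20, limma adjusted p = 0.0383) was lost without any 1 of 5 arrays. Of 16 imprinted growth genes, 1 passed, the amino acid transporter Slc38a4, which rose (log2 0.67, SE 0.15, limma adjusted p = 0.0184). The list median was -0.20, and 4 of the 16 had a positive difference (47.0% of all genes). Of its 4 members with an unadjusted p under 0.05, 1 was higher and 3 were lower. The growth factor Igf2 read -0.51 without passing (limma adjusted p = 0.0828). Slc38a4 lost its call without any 1 of 5 arrays. Slc16a10, a transporter of aromatic amino acids and thyroid hormone, rose by 0.58 (SE 0.13, limma adjusted p = 0.0313). It was the 1 of 9 thyroid genes to pass (list median 0.08) and lost its call without any 1 of 6 arrays.

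Myod1, a factor that commits cells to the muscle lineage, was the 1 of 21 satellite-cell and myogenic genes to change (list median -0.08). It read 5.22, 6.09, 5.66 and 5.50, then 6.58, 6.45, 6.37 and 6.39, a rise of 0.83 (SE 0.18, limma adjusted p = 0.0184) that was lost without any 1 of 4 arrays. None of 34 cell-cycle genes passed limma's test, while 4 had an unadjusted p under 0.05 (3 higher and 1 lower). In 26 of the 34, the mean over the 8 arrays of both ages lay under the lowest array median. The list median was 0.02. No call was made either among 24 ribosome biogenesis genes (0 past the threshold by limma, 3 with an unadjusted p under 0.05, median 0.00) or among 35 genes of TGF-beta, myostatin and BMP signalling (0 past it by limma, 4 with an unadjusted p under 0.05, median 0.03). These unadjusted counts too stand beside the 9.23% of all genes.

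None of 31 collagen chains passed limma's threshold in WT. Their differences had a median of -0.20 and were positive in 2 chains (47.0% of all genes), and 9 had an unadjusted p under 0.05 (9.23% of all genes), each with a negative difference. Col1a1, a chain of fibrillar type I collagen, read 9.76, 9.16, 9.81 and 8.97 at 1.5 months and 8.44, 7.84, 8.97 and 8.91 at 4 months, so the groups touched (log2 -0.89, SE 0.24, limma adjusted p = 0.107). In Gaa-/- muscle, 8 of the 31 chains fell over the same interval, where 1.06% of all genes changed, and the list median was -0.41. The genotypes were not shown to differ: limma's interaction test called 0 of the 31 chains, and 3 had an unadjusted p under 0.05 (6.23% of all genes). The 8 chains that fell in Gaa-/- muscle were Col1a1, Col3a1, Col4a2, Col5a1, Col6a1, Col6a2, Col6a3 and Col15a1. The cross-linking enzyme Lox (log2 -0.76, limma adjusted p = 0.176) and the elastic-fibre gene Mfap4 (log2 -0.81, limma adjusted p = 0.109) did not pass in WT. Timp3, an inhibitor of metalloproteinases, fell by 0.74 on the log2 scale (SE 0.14, limma adjusted p = 0.0065), the 1 of 20 genes of its list. The 10 tendon markers had a median of -0.35 and 0 past limma's threshold (2 with an unadjusted p under 0.05), and their mean level was 6.49 to 7.13 at 1.5 and 6.10 to 6.92 at 4 months. Whether tendon carried with the muscle had a part in the collagen values was not tested.

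Lists of energy metabolism are given beside all genes, of which 0.456% passed and 9.23% had an unadjusted p under 0.05. None of 73 oxidative phosphorylation genes passed limma's test (4 with an unadjusted p under 0.05, median 0.01), and none of 19 of the tricarboxylic acid cycle (1 with an unadjusted p under 0.05), 29 of fatty acid use (5) or 19 of glycolysis (1) did. Dgat2, which adds the last acyl chain to triglyceride, was the 1 of 19 lipid synthesis genes to change. It read 7.79, 7.83, 7.88 and 8.48, then 6.86, 6.87, 6.89 and 6.69, and fell 2.25-fold (log2 -1.17, SE 0.20, limma adjusted p = 0.00139). Plin4, a coat protein of lipid droplets, fell by 0.66 on the log2 scale (SE 0.14, limma adjusted p = 0.0163), and lost its call without any 1 of 4 arrays. The 9 adipocyte markers averaged 6.39 to 7.13 at 1.5 and 6.29 to 6.66 at 4 months, and 8 of the 9 had a negative difference. Their part in the falls of Dgat2 and Plin4 was not tested.

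Of the other largest falls, Angptl7, an angiopoietin-like secreted protein, read 7.79, 8.28, 7.63 and 7.21, then 6.27, 6.04, 5.70 and 6.999 (log2 -1.47, SE 0.25, limma adjusted p = 0.0015). Gstt2, a glutathione transferase (log2 -1.16, limma adjusted p = 0.009), Adh1, an alcohol dehydrogenase (log2 -1.04, limma adjusted p = 0.00395), and Pla2g12a, a secreted phospholipase (log2 -0.996, limma adjusted p = 0.015), fell by about 2-fold. Usp2, a deubiquitinase, was singled out after its values were seen. It read 9.95, 10.10, 10.05 and 10.38, then 9.27, 9.01, 9.39 and 9.43 (log2 -0.85, SE 0.12, limma adjusted p = 0.000151).

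**Figure D4:**
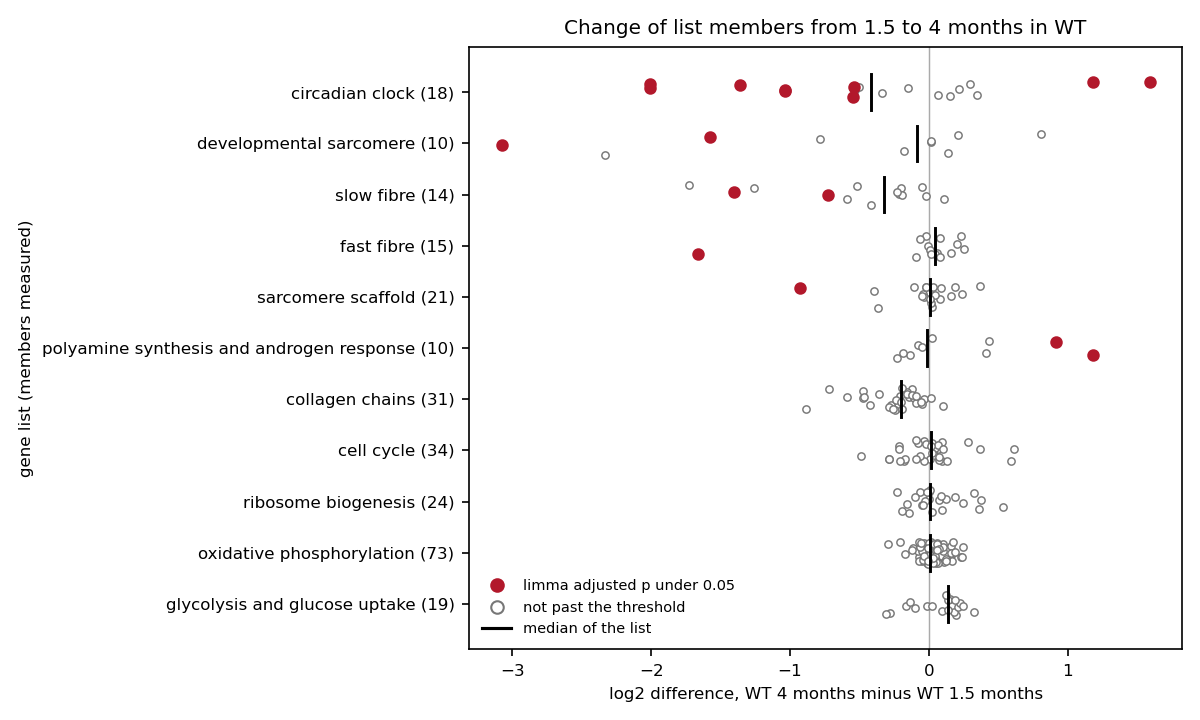
Log2 difference between 4 and 1.5 months in WT (x axis) of each measured member of 11 gene lists (y axis, number of members in brackets); filled points passed limma's adjusted p of 0.05, open points did not, and vertical bars are list medians. The clock list holds 9 filled points on both sides of 0, while the lists of the cell cycle, ribosome biogenesis, oxidative phosphorylation, glycolysis and collagen chains hold none.

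No gene passed limma's threshold between 4 and 6 months in WT (0%), although 2094 had an unadjusted p under 0.05, and this comparison shares the 4-month arrays with the one above. Between 6 and 9 months 1827 genes did (9.47%). The direct test of the 1.5 to 4 month change against the 6 to 9 month change, which shares no array between its sides, called 1283 genes (6.65%), among them 70 of the 88. The 88 genes were chosen by the 1.5 to 4 month change, which is 1 side of this test, so the count of 70 is only a description. The arrays of 9 months had a narrower spread (1.85 ± 0.045, SD, n = 4). In WT the spread ran from 1.92 to 1.95 at 6 months and from 1.79 to 1.9 at 9 months, without overlap. A fit that took the array spread as a covariate called 2 genes between 6 and 9 months and 10 for the difference. Because the spread separates these ages, age and spread cannot be told apart in that fit. In that fit the difference held for Mybph (log2 -3.61, limma adjusted p = 1.4e-05), Mss51 (2.12, 0.0199), Slc15a5 (1.87, 0.0199), Smyd2 (1.09, 0.0199) and Fam131a (1.02, 0.0463). It was lost for Amd2 (limma adjusted p = 0.0621), Slc38a4 (0.0688) and Odc1 (0.0817).

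Over the same ages in Gaa-/- muscle, 205 genes changed (1.06%). Of the 88 genes of WT, 74 had the same sign there (84.1%, against 63.8% of all genes) and 18 also passed with that sign, which is 20.5% of the 88 and 8.78% of the 205. None passed with the opposite sign. The change was smaller in size in Gaa-/- than in WT in 79 of the 88, a set chosen for its size in WT, and the median size was 0.30 against 0.81. Across all genes the changes of the 2 genotypes had a Pearson r of 0.35, which describes genes and not independent replicates.

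All 9 clock genes that changed in WT had the same sign in Gaa-/-, and 6 passed the test there. Among the other 79 genes the counts were 65 and 12, a difference that was not tested. Arntl rose by 1.92 in Gaa-/- (limma adjusted p = 2.92e-08), Dbp changed by -2.01 (limma adjusted p = 1.76e-06) and Ciart by -1.49 (limma adjusted p = 0.0019). Limma's interaction test called 0 of the 18 clock genes, while 5 had an unadjusted p under 0.05, against 6.23% of all genes.

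That interaction test, the Gaa-/- change minus the WT change, called 9 genes (0.0467%), 3 positive and 6 negative. In 4 of them the rise of WT was not matched in Gaa-/-. Slc15a5 went from 6.75 ± 0.26 to 7.13 ± 0.22 in Gaa-/- (SD, n = 4 each), and its interaction was -1.58 (SE 0.27, limma adjusted p = 0.0067). Mss51 went from 8.75 ± 0.49 to 8.48 ± 0.27, with an interaction of -1.77 (SE 0.32, limma adjusted p = 0.0122). 1700001O22Rik (interaction -1.45, limma adjusted p = 0.0195) and Dusp10 (interaction -1.45, limma adjusted p = 0.0473) were the others. Dusp10 was already at 9.68 ± 0.15 in Gaa-/- at 1.5 months, near its WT level of 4 months, 9.52 ± 0.30. Its interaction missed the threshold without any 1 of 5 arrays.

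Among falls, Mybph went from 9.17 ± 0.25 to 8.26 ± 0.34 in Gaa-/- (SD, n = 4 each), a change of -0.90 (limma adjusted p = 0.0514) against -3.08 in WT. Its interaction was 2.17 (SE 0.33, limma adjusted p = 0.00264). Angptl7, which fell in WT, started at 6.16 ± 0.20 in Gaa-/- and read 6.79 ± 0.42 at 4 months (interaction 2.10, SE 0.36, limma adjusted p = 0.0067). The other 3 genes did not change in WT past the threshold. Serpina3n, a serine protease inhibitor, went from 7.54 to 9.26 in Gaa-/- and from 6.88 to 7.16 in WT (interaction 1.44, limma adjusted p = 0.00264). Aqp4, the water channel of fast fibres, went from 6.73 to 4.97 in Gaa-/- and from 8.48 to 8.45 in WT (interaction -1.73, limma adjusted p = 0.0067). Its Gaa-/- mean at 4 months lay under the lowest array median (5.66), so the size of this interaction is less certain. Ampd1, the AMP deaminase of muscle, went from 9.39 to 8.71 and from 10.2 to 10.5 (interaction -0.95, limma adjusted p = 0.0158).

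**Figure D5:**
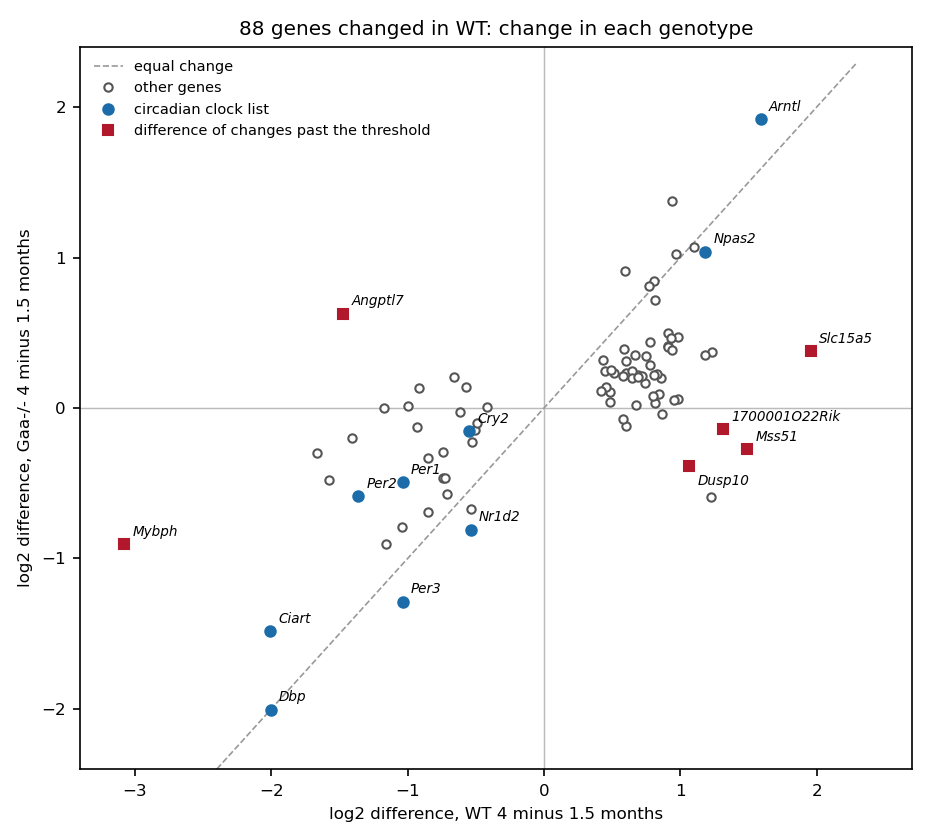
Log2 difference between 4 and 1.5 months in WT (x axis) and in Gaa-/- (y axis) of the 88 genes that changed in WT; each point is 1 gene, filled circles are clock genes, squares are genes whose change differed between genotypes, and the dashed line marks equal change. Arntl, Npas2 and Dbp lie close to the line, and Slc15a5, Mss51, 1700001O22Rik, Dusp10, Mybph and Angptl7 lie away from it.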

How the data were processed

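RNA of 32 tibialis anterior muscles was measured on 1-colour Affymetrix arrays (GeneChip WT Plus labelling, per the labels' protocols). The values deposited by the authors are on the log2 scale. The submitters' processing notes name affy and RMA, a method that corrects background, equalises quantiles and summarises probes. No version or genome build was found in the labels. Quantile normalization brings the arrays closer in distribution and can hide a change shared by most genes. The deposited values were not fully alike, with an array spread from 1.79 (WT, 9 months, replicate 1) to 2.03 (Gaa-/-, 4 months, replicate 3).

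Of 20079 probe sets, 19291 carried 1 symbol in the platform table, 788 none and 0 several, and all 19291 matched RefSeq genes of GRCm38.p6 by Entrez number. Each gene had 1 probe set and none was filtered out. A linear model with 1 mean per group over all 32 arrays was fitted with limma 3.58.1 in R 4.3.3 (lmFit, contrasts, eBayes). The residual SD had a median of 0.228 on 24 degrees of freedom, with 6.93 added by the prior. Tests were two-sided, adjusted by Benjamini-Hochberg over 19291 genes, with a threshold of 0.05. Arrays carry no read depth, so the 4 arrays per group limit the precision. Pearson's r between arrays ran from 0.980 to 0.990 within the 2 groups and from 0.978 to 0.987 between them. Where nothing more is said of the animals, p-values measure the spread between these samples. The fit was tested on simulated data.

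Named genes were the 15 largest rises and the 15 largest falls past the threshold without overlap and with the higher mean at or above the lowest array median; up to 4 genes with the smallest p from each of 33 gene lists and 14 marker lists (any member of the lists of isoform switches); and the 8 smallest p of the interaction and of the difference from the 6 to 9 month change. The members and lists were chosen with earlier results of these data known. Besides, 19 other fits were run, 8 of which leave out 1 array each, and 2 of which were chosen after seeing the data. Between same-numbered WT arrays of 1.5 and 4 months the correlations of deviations ran from -0.05 to 0.38, the largest in replicate 3. Replicates 3 and 4 matched their own number best and replicates 1 and 2 did not, and no block was used in the main fit. Collagen protein sequences were not used here.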

Additional observations from a re-analysis of the deposited data

Results flagged for a closer look

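Array values that stood apart from the other 3 of their group, beyond Dixon's 95% critical value, were found in 8 gene and group pairs and in the array spread, 9 of 96 groups looked at, where chance flags about 1 in 20. At 1.5 months replicate 2 was high for Otub2 (6.517 against 5.90 to 5.92), Slc16a10 (7.861 against 7.71 to 7.73) and Smyd2 (10.2 against 9.99 to 10.03), and replicate 4 was high for Dgat2 (8.478 against 7.79 to 7.88). At 4 months replicate 3 was low for Cd24a (9.486 against 10.19 to 10.33), Fam131a (8.002 against 8.49 to 8.58) and the array spread (1.899 against 1.98 to 1.996), replicate 2 was low for Actc1 (9.182 against 9.75 to 9.78), and replicate 4 was low for Dgat2 (6.685 against 6.86 to 6.89).

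The change from 1.5 to 4 months differed between the genotypes by limma's interaction test in 9 genes. The Gaa-/- change minus the WT change was -1.58 for Slc15a5, -1.77 for Mss51, -1.45 for 1700001O22Rik and -1.45 for Dusp10, where WT rose. It was 2.17 for Mybph and 2.10 for Angptl7, where WT fell, and 1.44 for Serpina3n, -1.73 for Aqp4 and -0.947 for Ampd1, which did not pass in WT alone.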

How the results depend on the processing

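All 44 named genes called in WT kept their direction in the 17 planned fits, 24 kept their call when each of the 8 arrays was left out, and 20 kept it in all 18 fits other than that with the clock score. With only the 8 arrays of the comparison 31 genes were called (16 higher, 15 lower; 28 of the 88), and with the 16 WT arrays 59 (21 lower) and 1 between 6 and 4 months. A second quantile normalization gave 800 for the difference from the 6 to 9 month change. The array spread as a covariate gave 55 lower genes (49 higher), 2 between 9 and 6 months, 95 in Gaa-/-, 16 in the interaction and 10 for the difference. A filter on low values gave 165 (104 higher, 61 lower), 5 between 6 and 4 months, 438 in Gaa-/-, 31 in the interaction and 1978 for the difference, array weights 326 (202, 124), 55, 1057, 44 and 2324, and a trended robust prior 86 higher genes, 325 in Gaa-/- and 25 in the interaction. With the replicate number as a block 89 genes were called, 83 of them shared with the 88, and 1 between 6 and 4 months. The sample titles give no pairing by number. Leaving out 1 array gave 53 to 151 genes called, 31 to 95 higher, 17 to 56 lower, 0 to 1 between 6 and 4 months and 427 to 2429 for the difference. The remaining settings were chosen after seeing the data. Without both replicate 3 arrays 78 genes were called (56 of the 88), and 1 between 6 and 4 months. The clock score as a covariate left 1 gene (0 higher, 1 lower), 1 in Gaa-/- and 0 for the difference, and turned Per1 (0.32) and Npas2 (-0.71), which are part of the score. The WT change of Aqp4, near 0 throughout, turned positive with centred medians (0.0077), array weights (0.0285) and without both replicate 3 arrays (0.0927), and ran from -0.107 to 0.0886 with 1 array left out. The cause of these shifts was not tested. No background was measured, so signal over background is unknown.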
